A study of Mus musculus with 6 samples.

Results

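The transcripts of 9 transcription factors that direct myeloid development were followed in mouse haematopoietic stem cells sorted with or without the chemokine receptor CCR2: Spi1, Cebpa, Cebpb, Cebpd, Cebpe, Gfi1, Irf8, Irf4 and Klf4. The factors were taken by symbol from the annotation of the array, and all 9 were measured among 22180 genes in total. Cells came from the marrow of C57BL/6J mice, and the sources used here give neither the age or sex of the mice nor the other surface markers of the sort. The study held 3 CCR2-negative and 3 CCR2-positive pools, each from 20 mice and each on an array of its own, and the labels name no treatment or engineered allele. From each pool 5 ng of total RNA was amplified and labelled. Values are log2 signals as deposited, and a difference is the CCR2-positive minus the CCR2-negative mean, followed by ± and limma's standard error. On this scale a difference of 1 is a doubling.

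Spi1 encodes PU.1, an ETS factor that opens the myeloid programme and acts with C/EBP alpha, the product of Cebpa, in progenitors of granulocytes and monocytes. C/EBP epsilon and the repressor GFI1 then serve granulocyte maturation, while IRF8 and KLF4 favour monocytes, IRF8 and IRF4 act in dendritic cells, and C/EBP beta takes over where demand for granulocytes is high. Stem cells already carry low amounts of several of these transcripts, and the balance among the factors is thought to bias lineage choice.

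Promoter sequence is shown for 4 factors that stand for the different behaviours in the data: Irf8, which varied most between pools, Gfi1, which had the clearest higher value, and Cebpa and Irf4, whose pools overlapped. Of the 9 factors, 6 had an entry in the RefSeq promoter table (build GRCm38.p6), with 8 start sites among them, and Irf8 and Gfi1 had more than 1. Spi1, Cebpd and Cebpe had no entry. Each run is the 250 bases before the annotated start, 5′ to 3′ on the strand of the gene, for the first start listed. Capitals mark matches on either strand to the 5 motifs searched: GAGGAA for PU.1, TTGCNNAA for C/EBP factors, GAAANNGAA for IRF factors, AAATCA for GFI1 and TATAAA, the TATA box.
Irf8, chr8:120736108-120736357, plus strand: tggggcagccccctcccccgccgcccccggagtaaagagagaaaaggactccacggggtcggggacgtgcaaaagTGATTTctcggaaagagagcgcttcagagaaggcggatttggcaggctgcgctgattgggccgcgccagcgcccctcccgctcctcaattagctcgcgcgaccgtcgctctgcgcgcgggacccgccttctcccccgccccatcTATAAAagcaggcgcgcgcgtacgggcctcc
Gfi1, chr5:107725806-107726055, minus strand: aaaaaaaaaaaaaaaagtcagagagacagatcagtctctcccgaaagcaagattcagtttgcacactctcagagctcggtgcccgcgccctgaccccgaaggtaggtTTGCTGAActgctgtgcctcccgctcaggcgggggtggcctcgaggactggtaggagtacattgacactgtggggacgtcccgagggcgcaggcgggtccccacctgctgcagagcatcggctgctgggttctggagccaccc
Cebpa, chr7:35119043-35119292, plus strand: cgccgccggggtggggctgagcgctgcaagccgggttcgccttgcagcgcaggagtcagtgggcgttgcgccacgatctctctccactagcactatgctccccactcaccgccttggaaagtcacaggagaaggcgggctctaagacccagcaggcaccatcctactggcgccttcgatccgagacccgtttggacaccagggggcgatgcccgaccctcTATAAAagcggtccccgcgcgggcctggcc
Irf4, chr13:30748983-30749232, plus strand: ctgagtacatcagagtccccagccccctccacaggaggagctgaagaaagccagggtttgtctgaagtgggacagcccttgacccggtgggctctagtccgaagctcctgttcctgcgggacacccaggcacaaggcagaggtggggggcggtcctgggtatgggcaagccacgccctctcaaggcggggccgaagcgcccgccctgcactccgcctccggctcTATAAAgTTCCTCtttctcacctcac

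The Irf8 run held a GFI1 match, TGATTT on the strand of the gene, the complement of AAATCA read in reverse, with its first base 175 bases before the start, and a TATA box at 31 bases. Over all 32851 windows of this length in the table, 12.4% held a GFI1 match and 12.4% a TATA box. Cebpa and Irf4 also held a TATA box, at 30 and 26 bases before the start, and Irf4 a PU.1 match at 19 bases, where 23.3% of windows held one. The Gfi1 run held a C/EBP match, TTGCTGAA at 143 bases, found in 9.56% of windows. An IRF match, which 7.13% of windows held, was in none of the 8 windows of the factors. The windows of Cebpb and Klf4 and the other Gfi1 window, not shown, held none of the motifs searched. The other Irf8 window held a GFI1 match. The factors shown are thus also the only ones with a match. These matches describe the letters and not occupancy, which was not measured.

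The pools differed in markers of stem cells and of other marrow cells, and the part of these in the values of the factors was not tested. All 10 stem cell markers measured, among them Tek, Hoxb5 and Hlf, had a mean level above the median of all genes. All 10 were also lower in the CCR2-positive pools (44.0% of all genes were), with a median difference of -0.42. At an unadjusted p under 0.05 by limma, 7 of them were lower, beside 6.61% of all genes. With single pools left out there were 5 to 8. None of the 10 passed the adjusted threshold of 0.05. The log2 value of Ccr2 was 6.81, 7.10 and 6.18 in CCR2-positive replicates 1, 2 and 3 and 5.64, 6.26 and 5.83 in the CCR2-negative ones, so the groups overlapped in the transcript that names them. CCR2-positive replicate 2 had the highest mean of the erythroid markers (8.46, other pools 7.27 to 8.13), of the neutrophil markers (5.43, other pools 4.70 to 5.17) and of the monocyte and macrophage markers (6.86, other pools 6.28 to 6.65). The neutrophil means lay below the array medians over probe sets (5.48 to 5.58). Markers of B cells (5.30), of T and NK cells (5.34) and of megakaryocytes (7.88) were instead highest in CCR2-positive replicate 3. In a pool of sorted cells, a change in the share of a cell type and a change in RNA per cell cannot be told apart.

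Of the 9 factors, Spi1 was lower and Gfi1 higher in the CCR2-positive pools without overlap, and the other 7 overlapped between the groups. No factor passed limma's adjusted p of 0.05 over all genes, and neither did any gene (0 of 22180, 0%). The smallest adjusted p among the factors was 0.320, for Spi1. At an unadjusted p under 0.05 there were 2 of 9 factors, against 12.2% of all genes. By direction it was 1 higher and 1 lower, where 5.63% of all genes were higher and 6.61% lower at that p. Pools did not overlap, with CCR2-positive higher, for 10.8% of all genes, and with CCR2-positive lower for 7.88%. Among 9 factors, 1 in each direction is the smallest count above 0. The split of all genes at that p, 1249 higher and 1467 lower, moved with the scaling of the arrays, to 1463 and 1227 under a second quantile normalization and to 1027 and 1621 under median centring. In all, 6 factors had a higher mean in the CCR2-positive pools and 3 a lower one, with a median difference of 0.11 beside 0.03 over all genes, of which 56.0% were higher.

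**Figure D1:**
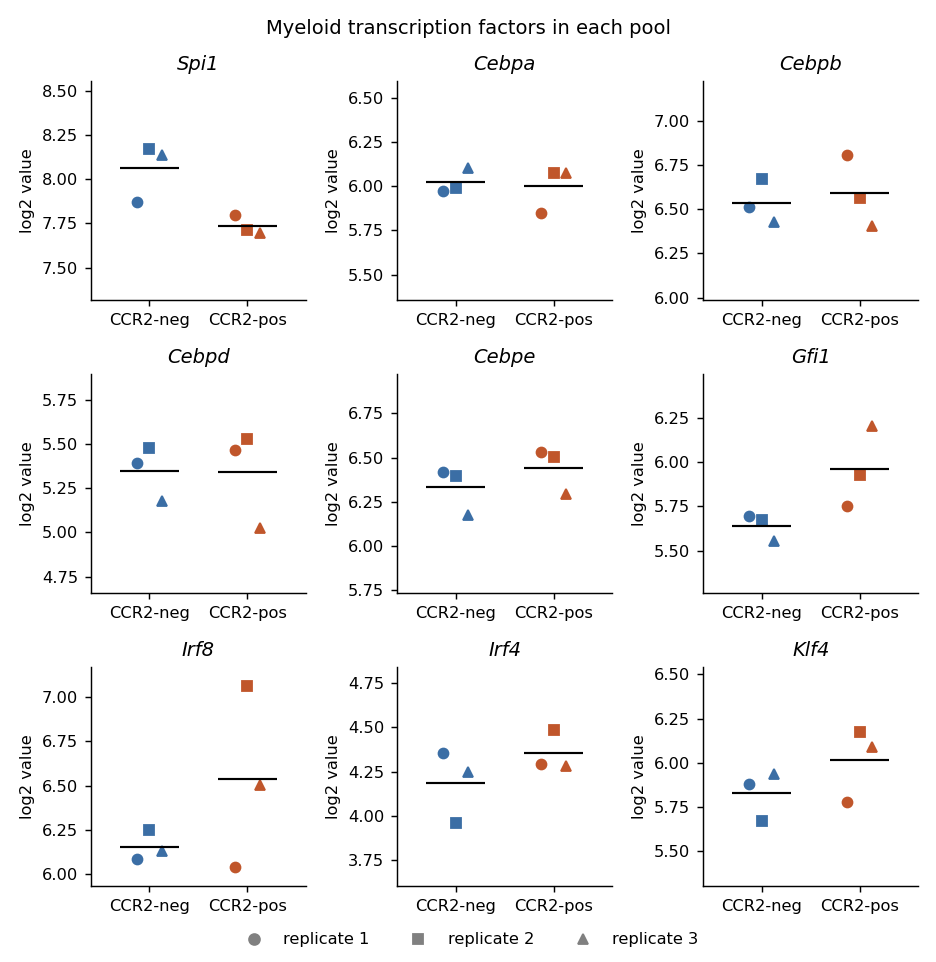
Log2 values of the 9 factors (vertical axes, each spanning the same number of log2 units) in the CCR2-negative (blue) and CCR2-positive (orange) pools, where symbols give the replicate number and lines the group mean. The groups separate for Spi1 and Gfi1, and Irf8 spreads from 6.04 to 7.07 in the CCR2-positive pools.

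Spi1, the gene of PU.1, had log2 values of 7.87, 8.17 and 8.14 in CCR2-negative replicates 1, 2 and 3. In the CCR2-positive pools they were 7.80, 7.71 and 7.70. All CCR2-positive pools lay below all CCR2-negative ones, though CCR2-negative replicate 1 was only 0.08 above the nearest of them. The difference was -0.32 ± 0.11 (1.25-fold lower), with a 95% interval of -0.59 to -0.06, an unadjusted p of 0.0206 and an adjusted p of 0.320 by limma. The CCR2-positive pools were close together for this gene, with an SD of 0.05 against 0.16 in the CCR2-negative pools (n = 3 each). The groups stayed apart under each of the 3 other scalings of the arrays. Leaving out a pool cannot make groups overlap that are apart with all pools. The unadjusted p was above the threshold of 0.05 under a second quantile normalization (0.0578) and without CCR2-negative replicate 2 (0.0689) or 3 (0.0717).

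Cebpa, the partner of PU.1 in early myeloid progenitors, had log2 values of 5.97, 5.99 and 6.10 in the CCR2-negative pools and 5.85, 6.08 and 6.08 in the CCR2-positive ones. The groups overlapped, with CCR2-positive replicate 1 the lowest pool, and the range over the 6 pools, 0.26, was narrower than for most genes, whose median range was 0.45. The difference was -0.02 ± 0.11, and its 95% interval of -0.27 to 0.23 sets the size of change that these arrays could have missed. Its sign turned with single pools left out (0.02 when CCR2-negative replicate 3 was dropped and 0.06 when CCR2-positive replicate 1 was).

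The other C/EBP genes did not separate the groups either. Cebpb, the C/EBP factor of emergency granulopoiesis, was at 6.51, 6.67 and 6.43 in the CCR2-negative pools and 6.80, 6.56 and 6.40 in the CCR2-positive ones, so that CCR2-positive pools were both the highest and the lowest. It differed by 0.05 ± 0.13 (95% interval -0.25 to 0.35), and by -0.05 to 0.15 with single pools left out. Cebpd, an acute-phase member of the family, was at 5.39, 5.48 and 5.18 against 5.47, 5.53 and 5.02, a difference of -0.01 ± 0.15 (95% interval -0.36 to 0.34). In both groups the replicate numbered 3 was its lowest pool. Without CCR2-positive replicate 3 the difference of Cebpd was 0.15.

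Cebpe, which drives the genes of secondary granules in maturing granulocytes, shared with Cebpd the low replicate 3 in both groups. It was at 6.42, 6.40 and 6.18 in the CCR2-negative and 6.53, 6.50 and 6.30 in the CCR2-positive pools. CCR2-positive replicates 1 and 2 were the highest of the 6, but replicate 3 lay within the CCR2-negative span. The difference was 0.11 ± 0.12 (95% interval -0.16 to 0.38, adjusted p = 0.731 by limma). Without CCR2-positive replicate 3 the groups no longer overlapped, and the difference was 0.18, whereas without CCR2-negative replicate 3 it was 0.03.

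Gfi1 encodes a zinc finger repressor that restrains monocyte genes in granulocyte precursors and limits the cycling of stem cells. Its log2 values were 5.70, 5.67 and 5.55 in the CCR2-negative pools and 5.75, 5.93 and 6.21 in the CCR2-positive ones. Every CCR2-positive pool lay above every CCR2-negative pool, by 0.06 at the nearest, with replicate 3 far above. The difference was 0.32 ± 0.13 (1.25-fold higher), with a 95% interval of 0.02 to 0.62, an unadjusted p of 0.0401 and an adjusted p of 0.380 by limma. Without CCR2-positive replicate 3 it was 0.20. Under cyclic loess scaling the groups of Gfi1 overlapped. Of the 6 fits with a pool left out, the one without CCR2-positive replicate 1 alone kept an unadjusted p below 0.05 (0.0149), and the others gave 0.0607 to 0.125.

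Irf8, the interferon regulatory factor of monocytes and dendritic cells, varied most among the 9. Its log2 values were 6.08, 6.25 and 6.13 in the CCR2-negative pools and 6.04, 7.07 and 6.50 in the CCR2-positive ones. CCR2-positive replicate 1 was the lowest of all pools, whereas replicates 2 and 3 lay above every CCR2-negative pool. The SD between pools was 0.51 for CCR2-positive and 0.09 for CCR2-negative (n = 3 each), and the range over the 6 pools, 1.03, was at percentile 94.6 of all genes. The difference of 0.38 ± 0.23 (95% interval -0.13 to 0.90) had an adjusted p of 0.530 by limma, and it was 0.12 without CCR2-positive replicate 2 and 0.63 without CCR2-positive replicate 1.

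Irf8 was the single factor with more than 1 probe set of its own, and these disagreed. The probe set with the lower mean read 6.22, 6.10 and 6.28 in the CCR2-negative pools and 6.24, 6.61 and 6.00 in the CCR2-positive ones. CCR2-positive replicate 2 was the highest pool on both probe sets, but replicate 3, the next highest on the former, was the lowest on the latter. The latter gave a difference of 0.08 ± 0.17, and the mean of both probe sets one of 0.23. High Irf8 in CCR2-positive replicate 2 was thus seen on both probe sets and in replicate 3 on 1 of them.

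The basophil genes Mcpt8 and Prss34 were, like Irf8 on its brighter probe set, higher in CCR2-positive replicates 2 and 3 than in replicate 1. Mcpt8 was highest in replicate 3 and Irf8 in replicate 2, and on the dimmer probe set Irf8 was lowest in replicate 3. Mcpt8, a basophil protease, was at 5.96 in CCR2-positive replicate 1 but 8.76 and 9.09 in replicates 2 and 3, against 5.89 to 6.41 in the CCR2-negative pools. Prss34, another basophil protease, was at 6.08, 7.80 and 7.08 against 6.40 to 6.60. Of the 8 basophil, mast cell and eosinophil markers measured, 7 had a higher mean in the CCR2-positive pools (56.0% of all genes did). Under a second quantile normalization there were 5. Mcpt8 alone was at an unadjusted p under 0.05, where 12.2% of all genes lay. With any 1 CCR2-negative pool or CCR2-positive replicate 2 left out none was, and without CCR2-positive replicate 1 or 3 there were 2. Their mean level was 5.40 to 6.49 in the CCR2-positive pools and 5.48 to 5.65 in the CCR2-negative ones, while Ms4a2 and Hdc stayed low in every pool (4.29 to 4.87 and 3.97 to 4.35). The part of such cells in the values of Irf8 was not tested.

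**Figure D2:**
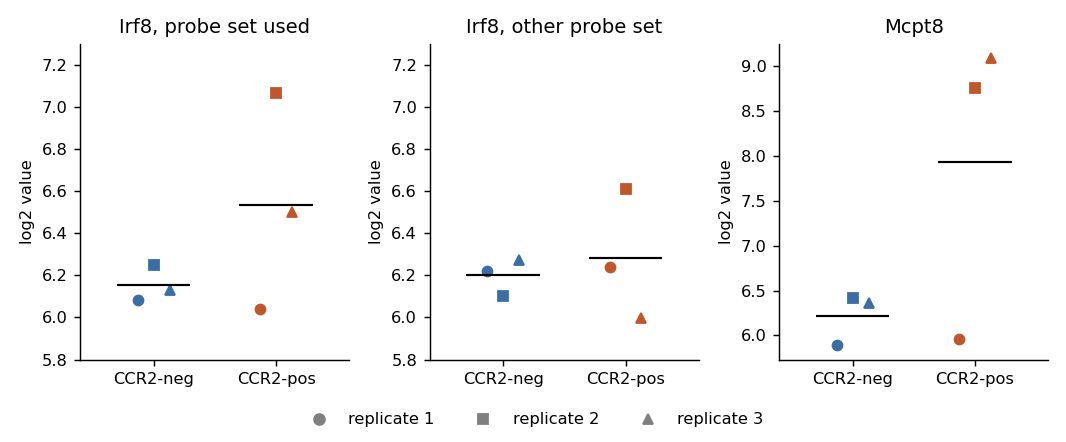
Log2 values of both Irf8 probe sets and of the basophil gene Mcpt8 in each pool, with symbols for the replicate number and lines for the group mean. CCR2-positive replicate 2 is highest for both Irf8 probe sets (7.07 and 6.61), whereas replicate 3 is at 6.50 on the former and 6.00 on the latter, and Mcpt8 is at 8.76 and 9.09 in these pools.

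Klf4, a zinc finger factor that acts in monocyte differentiation, was at 5.88, 5.67 and 5.94 in the CCR2-negative pools and 5.78, 6.18 and 6.09 in the CCR2-positive ones. As for Irf8, replicates 2 and 3 of the CCR2-positive group lay above every CCR2-negative pool. CCR2-positive replicate 1 lay within the CCR2-negative span for Klf4, whereas for Irf8 it lay below it. The difference was 0.19 ± 0.14 (95% interval -0.12 to 0.50, adjusted p = 0.610 by limma), and 0.30 without CCR2-positive replicate 1. It was 0.11 with replicate 2 of either group left out, and 0.06 with array weights.

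Irf4, the relative of Irf8 that acts in dendritic cells and lymphocytes, was at 4.35, 3.96 and 4.25 in the CCR2-negative pools and 4.29, 4.49 and 4.28 in the CCR2-positive ones. CCR2-positive replicate 2 was the highest and CCR2-negative replicate 2 the lowest, and the remaining 4 pools lay together between them. It differed by 0.17 ± 0.13 (95% interval -0.13 to 0.46), by 0.05 without CCR2-negative replicate 2 and by 0.10 without CCR2-positive replicate 2. Its mean level was at percentile 17.2 of all genes, and with no detection calls in the files it is unknown whether this signal stood above background.

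**Figure D3:**
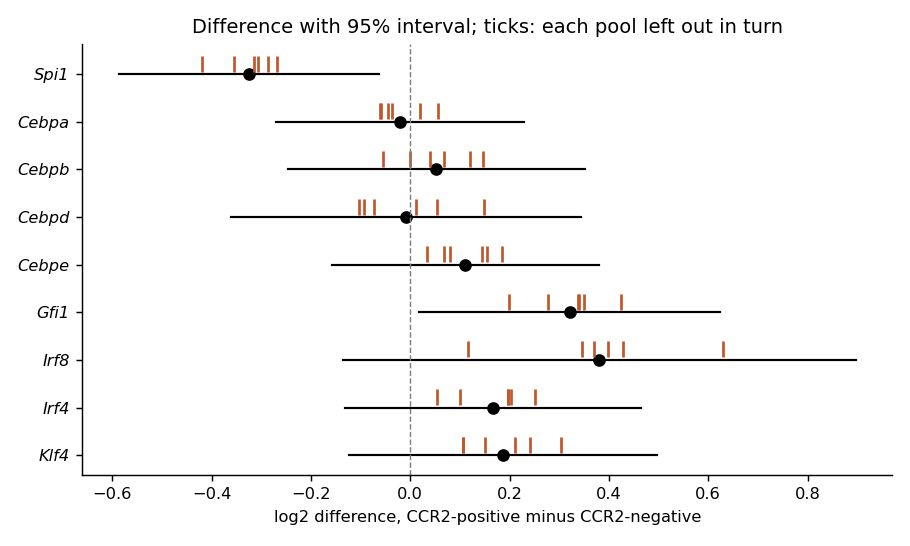
Difference between CCR2-positive and CCR2-negative pools on the log2 scale (horizontal axis) for each factor, with points for limma's estimate, bars for its 95% interval and orange ticks for the estimate with each of the 6 pools left out in turn. The intervals of Spi1 (-0.59 to -0.06) and Gfi1 (0.02 to 0.62) exclude 0 before adjustment over all genes, and the other 7 include it.

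Seen by pool, CCR2-positive replicate 2 was the highest of the 6 pools for 4 of the 9 factors (Irf8, Irf4, Klf4 and Cebpd) and the lowest for none, where it was highest for 18.3% and lowest for 16.5% of all genes. CCR2-positive replicate 3 was the highest for Gfi1 alone and the lowest for Spi1, Cebpb and Cebpd, beside 24.9% and 19.7% of all genes. The count of factors at an unadjusted p under 0.05 rested on single pools as well. It was 0 without CCR2-negative replicate 2 or 3. Leaving out CCR2-negative replicate 1 gave 1, as did leaving out replicate 2 or 3 of the CCR2-positive group. Without CCR2-positive replicate 1 it was 3, Irf8 being the third, and the pools of 4 factors did not overlap (Spi1, Gfi1, Irf8 and Klf4).

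The profiles of the factors over the pools were set beside those of the other genes. For the 6 factors with a range above the median of all genes, the genes closest in profile were sought by the mean absolute difference between log2 values centred on their own mean, over the 6 pools. Spi1 was closest to Atp5c1, a subunit gene of ATP synthase (0.02), and Rin2 (0.03), and Gfi1 to Acsm2 and C1qtnf1 (0.03 each). Irf8 was closest to Ifitm6 and Smpd4 (0.07 each), Klf4 to Mrgpra3 and Foxc2, Irf4 to Dsp and Pgc, and Cebpd to Myo9a and Taf4b. No factor was among these nearest genes of another, but with 9 factors among 22180 genes such a match was unlikely in any case. By place among all genes, the nearest other factor ranged from 184 for Cebpd to 5245 for Spi1. The closest pair of factors, Cebpd and Cebpe, differed by 0.08 on average, and Klf4 differed from Irf8 by 0.21.

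The relatives of each factor placed these values in their families. Of the 12 other ETS factors measured, 7 were lower and 5 higher in the CCR2-positive pools, with a median difference of -0.35. At an unadjusted p under 0.05, 6 were lower and 1 higher, beside 6.61% and 5.63% of all genes. None passed the adjusted threshold. The lower ones included Etv6, a repressor needed for marrow haematopoiesis (-0.51 ± 0.12, 1.42-fold), Elf4, a regulator of stem cell quiescence (-0.45 ± 0.11), and Elk3 (-0.57 ± 0.16). Spib, the closest relative of Spi1, differed in the other direction (0.54 ± 0.12, 1.45-fold higher). Its values were 4.42, 4.50 and 4.39 in the CCR2-positive against 3.83, 4.11 and 3.76 in the CCR2-negative pools, at a low mean level (percentile 15.2 of all genes). Without CCR2-negative replicate 1 the lower ETS genes at that p were 3, and without CCR2-positive replicate 2 the higher ones were 2. The stem cell markers were lower in the same pools, and their part in the ETS values was not tested.

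Of the 5 other IRF genes measured, 4 were lower and 1 higher, with a median of -0.25. At an unadjusted p under 0.05, 2 were lower (6.61% of all genes were), and 0 at an adjusted one. Irf2, a repressor that counters interferon signals in stem cells, was at 7.82, 7.96 and 7.73 in the CCR2-positive against 8.71, 8.13 and 8.38 in the CCR2-negative pools (-0.57 ± 0.15, 1.48-fold lower). Irf1, an activator induced by interferon, differed by -0.25 ± 0.10, and Irf9, the DNA-binding part of the type I interferon complex, by -0.28 ± 0.13, with no overlap in either. Irf8 and Irf4 had differences of the other sign. The count of 2 was 1 with any CCR2-negative pool or CCR2-positive replicate 1 left out, and 1 under a second quantile normalization or cyclic loess.

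The other Klf genes and Gfi1b were higher in 10 of 14 cases (56.0% of all genes were), with a median of 0.09. At an unadjusted p under 0.05, 4 were higher (5.63% of all genes were), and 0 at an adjusted one. Klf3 (0.57 ± 0.15), Klf16 (0.38 ± 0.13) and Klf1, the master factor of red cells (0.72 ± 0.24), did not overlap between the groups. Gfi1b, the paralogue of Gfi1 in erythroid and megakaryocyte cells, differed by 0.32 ± 0.13, as much as Gfi1 itself, but CCR2-positive replicate 3 at 9.98 lay below CCR2-negative replicate 1 at 10.02. The erythroid markers, which include Klf1, were higher in all 9 measured cases, with a median of 0.72 and a highest CCR2-negative mean level of 7.71, below every CCR2-positive pool, and the part of erythroid cells in the Klf values was not tested. The median of the other Klf genes and Gfi1b was 0.01 without CCR2-negative replicate 1, and that of the erythroid markers was 0.45. The count of 4 was 2 when CCR2-negative replicate 3 was dropped and 1 when CCR2-positive replicate 2 was.

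The 16 other C/EBP and bZIP factors were evenly split, 8 higher and 8 lower, with a median of 0.01 that was -0.02 under median centring. Atf4, the factor of the integrated stress response, differed by 0.27 ± 0.11. It was the single gene of the 16 at an unadjusted p under 0.05, where 12.2% of all genes lay. With pools left out this count was 0 to 2 (0 without CCR2-negative replicate 1 or 3, and 2 without CCR2-positive replicate 1 or 2). Jun, an AP-1 subunit that can act with PU.1, was at 6.54, 6.50 and 7.52 against 6.32, 6.30 and 6.45, so that CCR2-positive replicate 3 stood far above the other pools and the difference was 0.50 ± 0.25. Of 23 measured partners and opponents of the factors, 11 were higher and 12 lower. At an unadjusted p under 0.05, where 12.2% of all genes lay, there were 2 of the 23. These were Lmo2 (-0.45 ± 0.13) and Nr4a1, a nuclear receptor of patrolling monocytes (0.43 ± 0.13). At that p there were 4 when CCR2-negative replicate 2 was dropped, and likewise for CCR2-positive replicate 3. Runx1, which acts upstream of Spi1, differed by -0.19 ± 0.19, and Gata1, which opposes PU.1, by 0.44 ± 0.20, both with overlap.

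**Figure D4:**
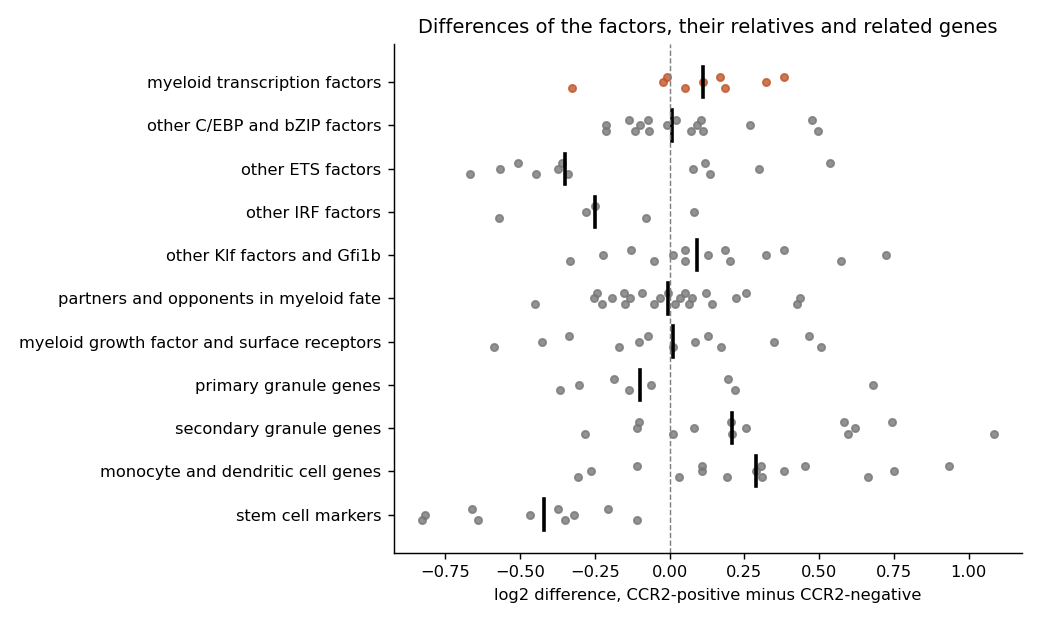
Differences between CCR2-positive and CCR2-negative pools on the log2 scale (horizontal axis), 1 point a gene, for the 9 factors (orange) and for their relatives, partners and related genes (grey), with black bars at the median of each list. The ETS relatives (median -0.35) and the stem cell markers (-0.42) lie mainly to the left, and the monocyte and dendritic cell genes (0.29) mainly to the right.

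Genes described as targets of the factors did not differ between the groups in a single direction. Of 13 receptor genes under PU.1 or C/EBP control, 3 were higher and 3 lower at an unadjusted p under 0.05. Of all genes, 5.63% were higher and 6.61% lower at that p. Fcgr3, an Fc receptor, was at 6.35, 6.71 and 6.43 against 5.90, 6.09 and 5.98 (0.50 ± 0.13). Csf1r, the receptor of M-CSF and a classical PU.1 target, was higher without overlap (0.35 ± 0.13). Itgam, with a smaller unadjusted p than Csf1r, was higher with overlap (0.47 ± 0.16). Csf3r, the receptor of G-CSF and a C/EBP alpha target, was lower without overlap (-0.43 ± 0.11), as was Tlr2 (-0.34 ± 0.10). The receptors' median was 0.01, which turned to -0.01 under median centring and cyclic loess, to -0.07 without CCR2-negative replicate 1 and to -0.02 without CCR2-positive replicate 2. The 3 higher genes at that p were 1 when CCR2-negative replicate 2 was dropped, and likewise for CCR2-positive replicate 1.

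Several primary granule genes, of the early programme of C/EBP alpha and PU.1, varied widely between the pools of a group. Elane, the neutrophil elastase gene, was at 6.66, 8.05 and 7.75 in the CCR2-negative and 7.25, 8.91 and 6.89 in the CCR2-positive pools, a difference of 0.20 ± 0.52. Mpo, the myeloperoxidase gene, was at 8.40, 9.50 and 9.62 against 8.80, 10.34 and 8.19. Hp had the largest difference of the list (0.68 ± 0.33), at 6.15, 6.15 and 5.86 against 6.85, 7.45 and 5.90. Of the 8 genes of this list 3 were higher and 5 lower. Srgn (-0.37 ± 0.12) alone was at an unadjusted p under 0.05, where 12.2% of all genes lay. Without CCR2-positive replicate 2, 7 were lower, 3 of them at that p, and without CCR2-positive replicate 3, 5 were higher, 1 of them at that p. The median, -0.10 with all pools, was -0.39 in the former case and 0.15 in the latter. Cebpa, with its narrow range, showed no such spread.

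Secondary granule genes, the later programme under C/EBP epsilon, were higher in 10 of 13 cases (56.0% of all genes were), with a median of 0.21. At an unadjusted p under 0.05, 3 were higher (Lcn2, Ngp and Chil3), beside 5.63% of all genes. Their mean levels were at percentiles 55.3, 33.5 and 66.1 of all genes. Other genes of the list lay lower, some at percentiles such as 9.12 and 14.2. Lcn2, which encodes a siderophore-binding protein, was at 6.43, 6.34 and 6.24 against 5.56, 5.68 and 6.02 (0.58 ± 0.14). Without CCR2-negative replicate 1 the count was 1, and the median was 0.13 without CCR2-positive replicate 2 and 0.39 without CCR2-positive replicate 3. Monocyte and dendritic cell genes, the programme of IRF8 and KLF4, were higher in 12 of 15 cases, again beside 56.0% of all genes. Their median of 0.29 was 0.03 without CCR2-positive replicate 2 and 0.19 without CCR2-negative replicate 1. Ly86 was at 6.56, 5.49 and 5.93 against 4.97, 5.01 and 5.20 (0.93 ± 0.24). It was highest in CCR2-positive replicate 1. F13a1, of monocytes, differed by 0.66 ± 0.18 without overlap and Adgre1 by 0.38 ± 0.15, while Cst3, abundant in dendritic cells, was lower (-0.31 ± 0.11). None of these genes passed the adjusted threshold.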

How the data were processed

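The authors deposited log2 values for 41345 probe sets on 6 arrays, made with RMA per the submitters' processing notes, with version and settings not given in the sources used here. RMA equalises arrays, so differences are relative to the other genes of an array. Probe sets with a single annotated gene (23521) were used, taking the brightest on average for each of the 22180 genes. Groups were compared with limma 3.58.1 in R 4.3.3 (lmFit, eBayes) over all genes, with Benjamini-Hochberg adjustment and a threshold of 0.05, and the fit was tested on simulated data. The standard error had a median of 0.127 over all genes; signal over background is unknown, and the number of arrays limits the precision. The 9 members and the gene lists were chosen with earlier results of these data known. Beside the members and Ccr2, the text names up to 4 genes of each list with the smallest p, any on which a result turns, and the 2 closest in profile. Runx1, Elane, Mpo and Ms4a2 fall outside this rule and were named after their values were seen, as does Csf1r within the receptor list. Alternatives were other scalings, filters, variance settings, a replicate block, all probe sets and each pool left out. List counts and the other Irf8 probe set were added after the data were seen. Lists held further symbols that were not analysed here.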

Additional observations from a re-analysis of the deposited data

How the results depend on the processing

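Spi1, Gfi1, Irf8, Cebpe, Irf4 and Klf4 kept the sign of their difference under every alternative that gave a value, and none of the 9 factors passed the adjusted threshold under any. Spi1 ranged from -0.42 to -0.25 and Gfi1 from 0.20 to 0.43. The sign turned for Cebpd with array weights (0.0879), and with pools left out for Cebpd (-0.103 to 0.148), Cebpa (-0.0601 to 0.0550) and Cebpb (-0.0545 to 0.146). The median of the 9 factors was 0.0343 to 0.155 with pools left out, lowest without CCR2-negative replicate 3. The count of factors at an unadjusted p under 0.05 was 1 without genes under the median level, with second quantile normalization, median centring, cyclic loess, array weights and the replicate block (Gfi1 with the second quantile normalization, Spi1 otherwise), and 0 to 3 with pools left out. The replicate number marks no shared source in the labels, and the deviations of same-numbered pools had correlations of 0.0348 to 0.0892, so the block is no pairing; it changed no other call. The count of factors whose pools do not overlap was 1 with cyclic loess and 2 to 4 with pools left out. Leaving out a pool cannot take this count below the 2 found with all pools. No gene passed the adjusted threshold except without CCR2-positive replicate 1 (0 to 2 over the pools left out), when Mcpt8 (2.70) and Gca (-1.55) did, both named after their values were seen. The cause of these changes was not tested, beyond fewer pools or fewer genes.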
